A study of Mus musculus with 4 samples.

Results

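Notch1, Notch2, Notch3, Jag1, Jag2, Dll1, Adam10, Hes1 and Hey1 code for the core of the Notch pathway, and their transcripts were followed in vaginal epithelium of ovariectomised and ovary-intact mice. Notch is a contact signal: a ligand on one cell (Jag1, Jag2 or Dll1) binds a receptor on its neighbour, the protease Adam10 and then gamma-secretase cut the receptor, and the released intracellular domain enters the nucleus, binds RBPJ and switches on genes such as Hes1 and Hey1. In stratified epithelia such as the epidermis the pathway is known for its part in the passage of cells out of the basal layer. The 9 genes were taken by name from the 25071 gene symbols of the series, with earlier results of these data known.

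The data are Drop-seq libraries, in which the RNA of single cells is captured in droplets and each molecule is counted once by its unique molecular identifier (UMI). The OVX group had 2 libraries from surgically ovariectomised C57BL/6 mice, and the WT group had 2 libraries from C57BL/6 mice with their ovaries; no age or genetic change is given for either group. Each library was a pool of 5 mice, and it is unclear whether the pair of libraries of a group came from separate pools, so the spread behind each p-value is that between libraries and may be technical. Vaginal epithelium was loosened with pronase and pressed out with forceps.

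After cells with under 200 detected genes or over 20% mitochondrial UMIs were left out, 1573 and 1907 cells remained in the OVX libraries and 2979 and 1987 in the WT libraries. Deposited totals were 991112 and 1684967 UMIs in OVX libraries, against 5845107 and 1934634 in WT libraries, and the median cell held 435 and 738 UMIs in OVX libraries, against 1597 and 799 in WT libraries. Median mitochondrial shares were 8.97% and 9.69% in OVX libraries, against 4.00% and 3.85% in WT libraries. Malat1, a long RNA of the nucleus, made up 2.50% and 1.81% of UMIs in OVX libraries, against 0.336% and 0.465% in WT libraries. Any pair of libraries shared 2 to 15 cell barcodes. Cells were sorted by marker genes that include no Notch gene: the basal gate held 1172 and 1587 cells in OVX libraries and 2449 and 1527 in WT libraries, and the upper gate held 138 and 173 in OVX libraries and 517 and 448 in WT libraries. The upper gate held different kinds of cells in the groups. In OVX libraries it was made of cells with luminal markers such as Krt8 and Krt18 (133 of 138 and 172 of 173), and in WT libraries of cells with suprabasal markers such as Krt1 and Krt10 (516 of 517 and 446 of 448). No gate took 239 and 113 cells in OVX libraries, against 1 and 4 in WT libraries. Lists for 6 non-epithelial types gated 24 and 34 cells in OVX libraries, against 12 and 8 in WT libraries, and the macrophage and dendritic list summed to 11.5 and 10.8 counts per 1000000 UMIs (CPM) in OVX basal cells, against 5.08 and 11.5 in WT basal cells. In the same cells the melanocyte and nerve list summed to 18.0 and 21.7 CPM in OVX, against 4.02 and 1.35 CPM in WT, and the fibroblast list to 8.18 and 20.9 CPM in OVX, against 1.69 and 0 CPM in WT. The T and NK list summed to 14.7 and 16.6 CPM in OVX, against 66.8 and 75.2 CPM in WT, the smooth muscle list to 1.64 and 2.17 CPM in OVX, against 3.38 and 8.81 CPM in WT, and the endothelium list to at most 2.71 CPM in any library. Their part in the results was not tested. Doublets were not removed.

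Promoters are shown for the ligands and receptors that changed between layers of the WT epithelium, Jag2 and Notch1 on one side and Notch3 on the other, with Jag1, whose layer pattern differed between the groups. RefSeq sequences (GRCm38.p6) were matched for 7 of the 9 genes. The targets Hes1 and Hey1 had no entry, so their promoters were not searched. Each sequence runs 5′ to 3′ on the coding strand, from 250 bases before the RefSeq transcript start to 50 bases after it; the starts used for Jag1, Jag2 and Notch1 lie inside the GENCODE gene spans. Capitals mark matches, on either strand, to the RBPJ core TGGGAA, to the Hes and Hey binding letters CACGNG, or to the N-box CACNAG, which Hes proteins also bind; CACGAG fits both of the last.
Jag1: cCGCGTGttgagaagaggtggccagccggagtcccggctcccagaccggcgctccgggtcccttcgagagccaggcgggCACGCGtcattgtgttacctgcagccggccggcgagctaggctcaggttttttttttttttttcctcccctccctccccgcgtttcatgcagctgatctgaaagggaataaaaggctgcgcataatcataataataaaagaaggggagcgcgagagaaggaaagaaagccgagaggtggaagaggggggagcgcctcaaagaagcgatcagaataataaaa
Jag2: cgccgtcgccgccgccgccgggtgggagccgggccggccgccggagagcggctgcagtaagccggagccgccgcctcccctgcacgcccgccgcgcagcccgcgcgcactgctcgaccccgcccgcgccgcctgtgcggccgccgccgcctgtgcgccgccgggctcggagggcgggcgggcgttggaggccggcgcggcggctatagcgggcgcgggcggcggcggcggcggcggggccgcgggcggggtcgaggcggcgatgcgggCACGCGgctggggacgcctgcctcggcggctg
Notch1: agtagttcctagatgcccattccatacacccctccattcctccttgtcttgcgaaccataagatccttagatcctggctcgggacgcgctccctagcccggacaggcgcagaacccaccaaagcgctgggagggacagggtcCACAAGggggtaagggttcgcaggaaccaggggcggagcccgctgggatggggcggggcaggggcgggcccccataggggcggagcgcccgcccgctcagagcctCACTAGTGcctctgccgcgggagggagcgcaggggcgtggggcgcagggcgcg
Notch3: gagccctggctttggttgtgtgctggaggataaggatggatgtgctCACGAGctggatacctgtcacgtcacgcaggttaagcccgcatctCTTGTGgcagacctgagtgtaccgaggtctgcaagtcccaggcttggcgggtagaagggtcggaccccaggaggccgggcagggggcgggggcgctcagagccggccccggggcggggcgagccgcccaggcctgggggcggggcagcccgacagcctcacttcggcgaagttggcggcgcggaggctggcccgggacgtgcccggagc

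The windows lie on the minus strand at chr2:137116471-137116770 (Jag1), chr12:112929446-112929745 (Jag2), chr2:26503773-26504072 (Notch1) and chr17:32166841-32167140 (Notch3). Jag1 held 2 matches to CACGNG and Jag2 held 1, and neither held an N-box. Notch1 held 3 N-box matches and none to CACGNG, and Notch3 held 2 N-box matches, of which CACGAG also counts as its 1 match to CACGNG. None of the member windows searched, which leave out Hes1 and Hey1, held the RBPJ core. Over all 32841 promoters of the table, 25.6% held the RBPJ core, 27.5% held CACGNG and 42.5% held the N-box. GC content was 55.7% for Jag1, 86.0% for Jag2, 68.3% for Notch1 and 70.0% for Notch3, against a median of 52.7% over all promoters. These matches are letters in a window and no record of binding.

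Between OVX and WT libraries the clearest difference lay in the target Hey1, a transcriptional repressor that Notch switches on, and it was the only one of the 9 genes to pass the test. Jag1, Dll1, Notch1, Notch2 and Hes1 also stood higher in both OVX libraries than in either WT library, but their differences did not pass. Adam10 stood lower in both OVX libraries, and Jag2 and Notch3 overlapped between the groups. The share of genes called at an adjusted p under 0.05 was 5.11% of the 11495 tested, 2.58% higher and 2.52% lower (edgeR quasi-likelihood test, Benjamini-Hochberg adjustment), so 1 call among 9 genes is no more than a single gene away from that background. Groups without overlap are also common with 2 libraries each: 50.3% of tested genes had none, with OVX libraries both higher for 29.1% and both lower for 21.2%, against 6 and 1 of the 9 Notch genes. The median fold change (log2, OVX over WT) was 0.99 over the 9 genes and -0.03 over all genes tested.

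**Figure D1:**
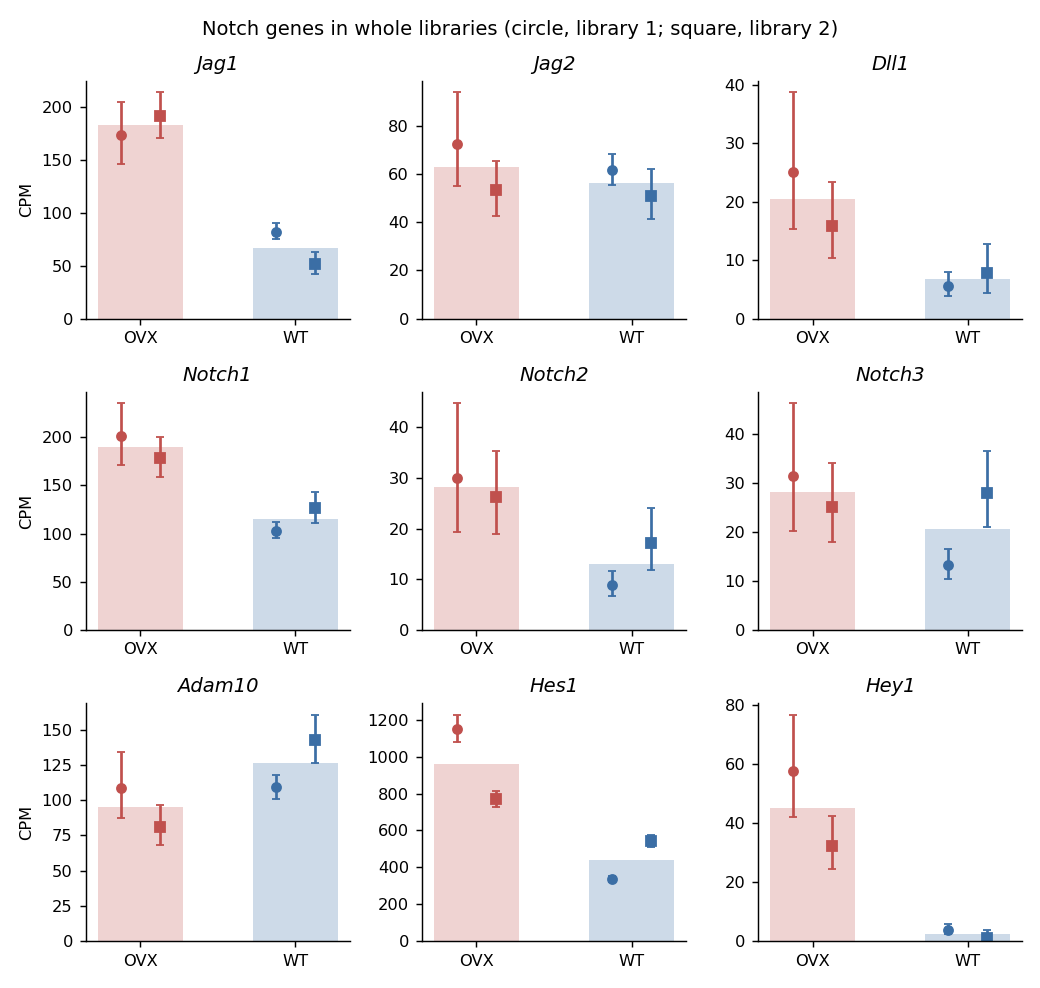
Levels in CPM in each whole library (points, circle for library 1 and square for library 2) for the 9 Notch genes, with 95% counting intervals as lines and group means as bars; the y axis of each panel starts at 0. Hey1 and Jag1 lie higher in both OVX libraries than in both WT libraries, while Jag2 and Notch3 overlap.

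Levels below are in CPM of the library or gate, to be compared within a gene and not between genes. Of the ligands, Jag1 (chromosome 2, 137081456 to 137116644, minus strand, GRCm38), the jagged ligand with a wide role in epithelia, had 174.0 and 191.8 CPM in OVX libraries, against 82.5 and 51.8 CPM in WT libraries. Both OVX values lay above both WT values. Its log2 fold change was 1.303 ± 0.418 (SE), which did not pass (edgeR adjusted p = 0.130). With each library left out in turn the fold change ran over 0.95 to 1.72. In counts summed over a library, fewer cells that make a transcript cannot be told apart from less of it per cell.

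Dll1 (chromosome 17, 15367354 to 15376872, minus strand), a delta-like ligand, was sparse. It had 25.0 and 15.9 CPM in OVX libraries, from 20 and 26 UMIs, against 5.66 and 7.77 CPM in WT libraries, from 33 and 15 UMIs. The groups did not overlap, and the log2 fold change of 1.46 ± 0.50 did not pass (edgeR adjusted p = 0.154). Jag2 (chromosome 12, 112907819 to 112929776, minus strand), the other jagged ligand, had 72.6 and 53.1 CPM in OVX libraries, against 61.7 and 50.8 CPM in WT libraries. These values overlap, and its log2 fold change was 0.00 ± 0.39 (edgeR adjusted p = 0.996).

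Among the receptors, Notch1 (chromosome 2, 26457903 to 26516663, minus strand), the main Notch receptor of keratinocytes, had 201.5 and 179.0 CPM in OVX libraries, against 103.1 and 126.4 CPM in WT libraries. The groups did not overlap, but the log2 fold change of 0.59 ± 0.38 did not pass (edgeR adjusted p = 0.438). Notch2 (chromosome 3, 98013527 to 98150361, plus strand) had 30.0 and 26.3 CPM in OVX libraries, against 8.92 and 17.1 CPM in WT libraries. Its log2 fold change was 1.01 ± 0.48, which did not pass (edgeR adjusted p = 0.295). With each library left out in turn the fold change ran over 0.61 to 1.44. Notch3 (chromosome 17, 32120820 to 32166852, minus strand) had 31.3 and 25.0 CPM in OVX libraries, against 13.2 and 28.0 CPM in WT libraries. Only WT library 1 stood apart there, and the log2 fold change of 0.33 ± 0.49 did not pass (edgeR adjusted p = 0.761).

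Adam10 (chromosome 9, 70678997 to 70780229, plus strand), the protease that makes the first ligand-induced cut, had 108.9 and 81.3 CPM in OVX libraries, against 109.4 and 143.0 CPM in WT libraries. The highest OVX value and the lowest WT value nearly touch, and the log2 fold change of -0.55 ± 0.39 did not pass (edgeR adjusted p = 0.485).

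Hes1 (chromosome 16, 30064384 to 30067796, plus strand), a basic helix-loop-helix repressor and the standard readout of Notch activity, had 1152 and 772 CPM in OVX libraries, against 337 and 540 CPM in WT libraries. The groups did not overlap, but the libraries of each group lay far apart, and the log2 fold change of 0.99 ± 0.44 did not pass (edgeR adjusted p = 0.267). Hey1 (chromosome 3, 8663359 to 8667256, minus strand), a relative of Hes1, had 57.6 and 32.4 CPM in OVX libraries, against 3.77 and 1.04 CPM in WT libraries. These come from 46 and 53 UMIs in OVX libraries, against 22 and 2 UMIs in WT libraries, although WT libraries held more UMIs in all. Hey1 rose in OVX libraries, with a log2 fold change of 3.84 ± 0.62 (edgeR adjusted p = 0.0150). It passed under all 11 alternatives tried for it in whole libraries, at 3.31 to 5.19. The OVX libraries also had the higher mitochondrial and Malat1 shares given above, and the part of these in the Hey1 result was not tested.

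**Figure D2:**
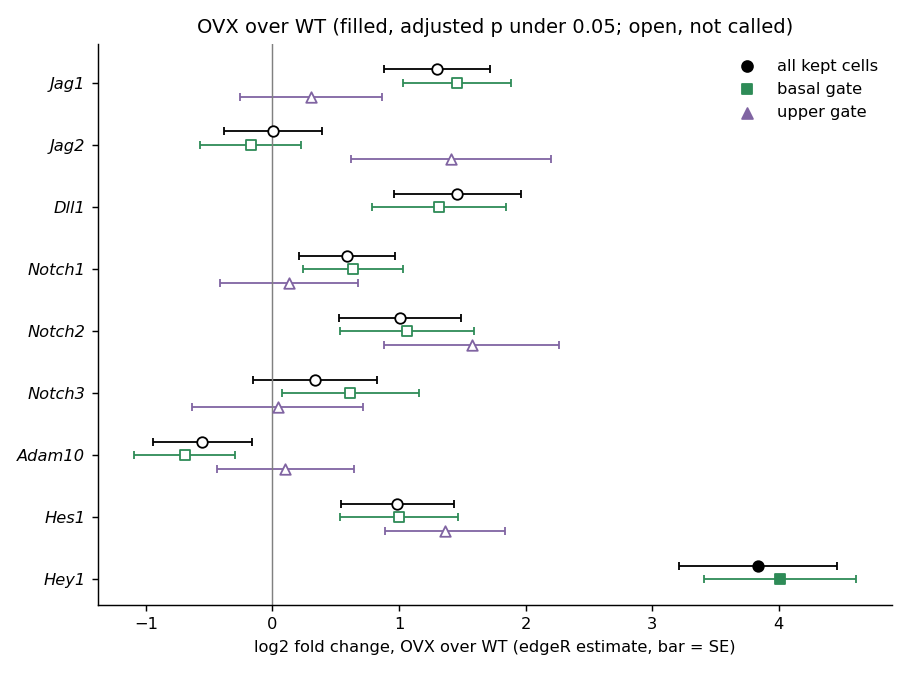
Fold change of each Notch gene on the x axis (log2, OVX over WT, edgeR estimate with SE as bar) in all kept cells, the basal gate and the upper gate; filled symbols passed the test at an adjusted p of 0.05. Hey1 is filled in all kept cells and in the basal gate, at 3.84 and 4.01; no other gene is.

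Most transcripts of the pathway came from the basal gate, which also held most cells: for Notch1 it gave 85.1% and 90.1% of UMIs in OVX libraries, against 86.2% and 84.8% in WT libraries. Within it, 1 of the 9 genes passed, against 4.26% of 10721 genes tested (1.87% higher). Hey1 had 65.5 and 35.4 CPM in OVX basal cells, against 3.59 and 1.35 CPM in WT basal cells. It rose there too, with a log2 fold change of 4.01 ± 0.60 (edgeR adjusted p = 0.0117). The basal gate also differed in its own markers: the basal list summed to 9776 and 9827 CPM in OVX basal cells, against 43984 and 24769 CPM in WT basal cells. The luminal list summed to 583 and 673 CPM in OVX basal cells, against 77.0 and 80.6 CPM in WT basal cells, and the suprabasal list to 506 and 484 CPM in OVX basal cells, against 2946 and 3790 CPM in WT basal cells. Their part in the basal results was not tested.

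Jag1 had 170.2 and 207.1 CPM in OVX basal cells, against 77.8 and 50.8 CPM in WT basal cells. Its log2 fold change of 1.46 ± 0.43 did not pass (edgeR adjusted p = 0.108), although the groups stood well apart. Hes1 had 1123 and 744 CPM in OVX basal cells, against 315 and 553 CPM in WT basal cells (log2 fold change 1.00 ± 0.47, edgeR adjusted p = 0.293). With each library left out in turn the Hes1 difference ran over 0.66 to 1.41. Of the 9 genes, 7 stood higher in both OVX libraries and Adam10 lower, where all tested genes gave 26.7% and 22.6%; Jag2 overlapped again, at 72.0 and 55.6 CPM in OVX basal cells, against 74.0 and 58.9 CPM in WT basal cells. The proliferation list (Mki67, Top2a and other mitotic genes) summed to 173 and 320 CPM in OVX basal cells, against 3048 and 2122 CPM in WT basal cells. With dividing cells left out, Hey1 still passed in the basal gate (edgeR adjusted p = 0.0184) and no other Notch gene did.

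The share of basal cells with a UMI was compared after each cell was thinned to 400 UMIs. Over all gates this left out 650 and 43 cells of the OVX libraries and 0 and 43 of the WT libraries. Of basal cells, 732 of 1172 and 1561 of 1587 were kept in OVX libraries. In WT libraries 2449 of 2449 and 1491 of 1527 were kept. Hes1 was then seen in 31.4% and 23.0% of OVX basal cells, against 11.1% and 17.3% of WT basal cells. Without thinning the shares were 33.9% and 37.1% in OVX basal cells, against 35.4% and 33.4% in WT basal cells, so that the order depended on equal depth. Hey1 was seen in 2.05% and 0.961% of thinned OVX basal cells, against 0.163% and 0.0671% of thinned WT basal cells. Among non-epithelial cells, with a median of 418 and 582 UMIs in OVX libraries and 1060 and 512 in WT libraries, a Hes1 UMI was found in 3 of 24 cells of OVX library 1 and in none of the 34 cells of OVX library 2 or the 12 and 8 cells of WT libraries.

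In the upper gate none of the 7 Notch genes that could be tested passed, against 6.32% of 5193 genes (3.95% higher and 2.37% lower); 2 had an unadjusted p under 0.05. OVX values lay above WT values without overlap for 5 of the 9 genes and below them for none, against 27.8% and 21.4% of tested genes. Hes1 had 1527 and 1142 CPM in OVX upper cells, against 439 and 499 CPM in WT upper cells. The groups did not overlap, but the log2 fold change of 1.36 ± 0.47 did not pass (edgeR adjusted p = 0.116). Notch2 had 35.8 and 65.7 CPM in OVX upper cells, against 14.8 and 17.9 CPM in WT upper cells (log2 fold change 1.57 ± 0.69, edgeR adjusted p = 0.235). The OVX values rest on 3 and 10 UMIs. Dll1 and Hey1 fell under the filter on low counts there, at 0 and 3 UMIs of Dll1 and 3 and 3 of Hey1 in OVX upper cells, against 1 and 1 of Dll1 and 5 and 0 of Hey1 in WT upper cells.

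Layers were then compared within each library. In WT epithelium the ligand Jag2 and the receptor Notch3 ran in opposite directions: upper, suprabasal cells had little Jag2 and more Notch3 than basal cells. Of the 9 genes 2 rose and 2 fell in WT upper cells, where the same test called 15.1% of 10458 genes, 6.95% higher and 8.19% lower. Across the 4 libraries Notch2 and Notch3 were higher in every upper gate, as were 7.77% of genes, and Notch1 and Jag2 were lower in every upper gate, as were 17.0% of genes.

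Jag2 had 8.33 and 22.4 CPM in WT upper cells, against 74.0 and 58.9 CPM in WT basal cells. It fell in the upper cells of both libraries, by 2.31 ± 0.31 on the log2 scale (edgeR adjusted p = 1.09e-09); without WT library 1 the difference was -1.27 and did not pass (adjusted p = 0.1196). In OVX epithelium it had 35.8 and 46.0 CPM in upper, luminal cells, against 72.0 and 55.6 CPM in basal cells. That difference, -0.63 ± 0.48, did not pass (edgeR adjusted p = 0.605), and the difference between the layer effects of OVX and WT, 1.69 ± 0.67, did not pass either (edgeR adjusted p = 0.193).

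Notch3, a receptor best known from vascular smooth muscle, had 27.8 and 42.5 CPM in WT upper cells, against 9.94 and 23.7 CPM in WT basal cells. It rose with a log2 fold change of 1.34 ± 0.31 (edgeR adjusted p = 0.000492), from 30 and 19 UMIs in the upper cells. The Notch3 call was lost under 2 of the 8 alternatives, among them without WT library 1. In OVX epithelium it had 47.7 and 32.8 CPM in upper cells, against 27.8 and 25.3 CPM in basal cells, and did not pass (log2 fold change 0.45 ± 0.58, edgeR adjusted p = 0.795). Notch1 moved the other way. It had 76.8 and 82.8 CPM in WT upper cells, against 109.5 and 140.2 CPM in WT basal cells, and fell by 0.47 ± 0.16 on the log2 scale (edgeR adjusted p = 0.0349). That call was lost under 4 of the 8 alternatives, among them without either WT library.

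Between OVX layers 1 of the 9 genes rose and 2 fell, where the test called 4.87% of genes, 2.58% higher and 2.29% lower. In OVX epithelium Notch1 had 83.5 and 105.0 CPM in upper cells, against 224.2 and 190.5 CPM in basal cells. It fell by 1.15 ± 0.29 on the log2 scale (edgeR adjusted p = 0.00525). Its call was lost under 2 of the 8 alternatives, among them without OVX library 1. The difference between its layer effects, -0.68 ± 0.35, did not pass (edgeR adjusted p = 0.371). Notch2 had 14.8 and 17.9 CPM in WT upper cells, against 7.61 and 15.6 CPM in WT basal cells, and passed in neither group (edgeR adjusted p = 0.212 in WT and 0.310 in OVX).

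**Figure D3:**
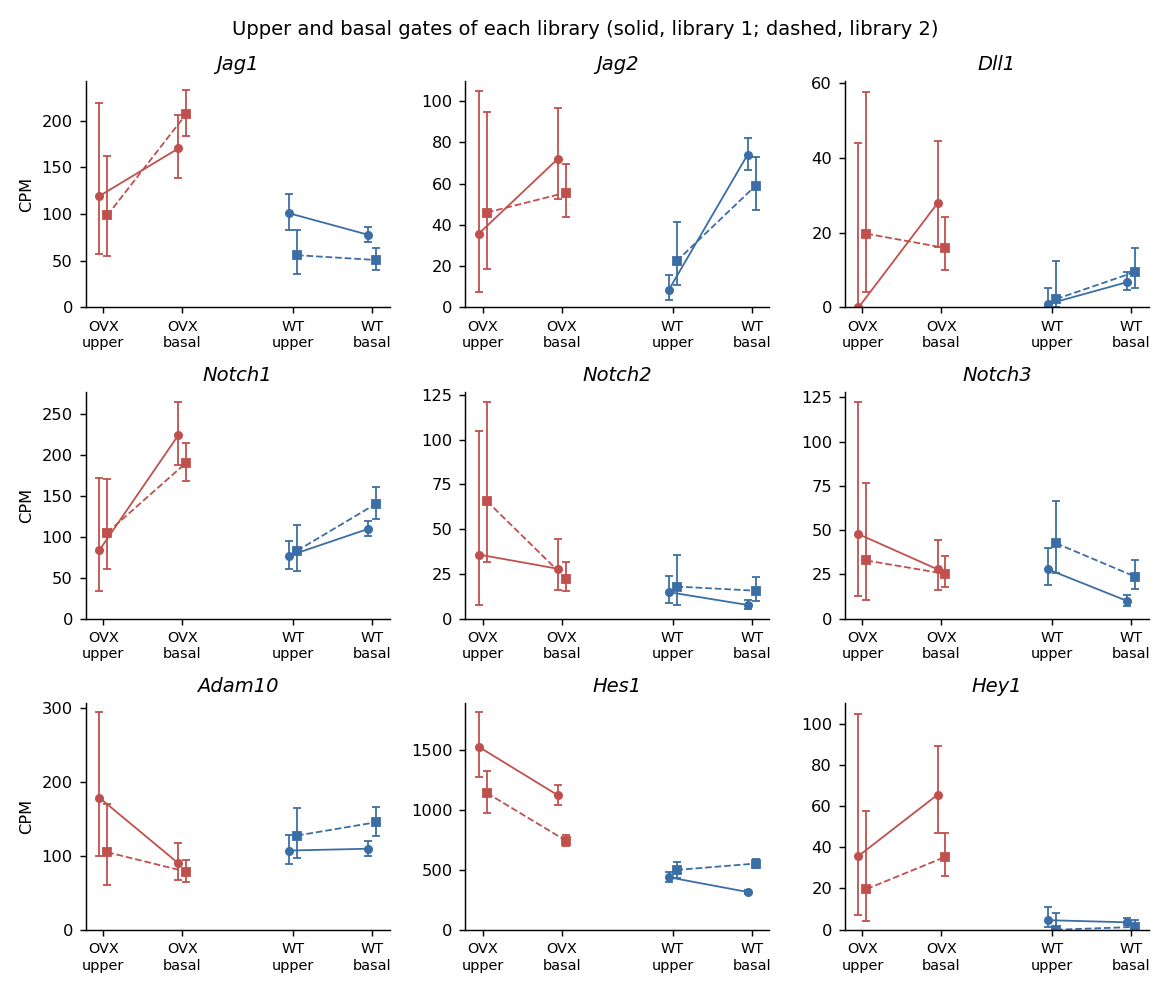
Levels in CPM in the upper and basal gates of each library (solid line, library 1; dashed line, library 2) with 95% counting intervals; each panel has its own y axis from 0. Jag2 is lower and Notch3 higher in WT upper cells than in WT basal cells of both libraries, and Jag1 is lower in upper than in basal cells of both OVX libraries and higher in both WT libraries.

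Jag1 was the only one of the 9 genes whose layer effect differed between the groups, a comparison that called 3.36% of 10458 genes, 1.22% as more positive in OVX and 2.13% as more negative. It had 119.3 and 98.5 CPM in OVX upper cells, against 170.2 and 207.1 CPM in OVX basal cells, and fell by 0.95 ± 0.29 on the log2 scale (edgeR adjusted p = 0.0310). That call was lost under 4 of the 8 alternatives, among them without OVX library 2 and with gates set on thinned cells (edgeR adjusted p = 0.320). The log2 fold change ran over -1.24 to -0.49 under all 8. In WT epithelium Jag1 had 100.9 and 56.0 CPM in upper cells, against 77.8 and 50.8 CPM in basal cells, and did not pass (log2 fold change 0.46 ± 0.17, edgeR adjusted p = 0.0630). Upper cells were thus lower than basal cells in both OVX libraries and higher in both WT libraries. The difference between the layer effects was -1.41 ± 0.33 (edgeR adjusted p = 0.00398). It did not pass without WT library 1 (0.230), without OVX library 2 (0.322) or with stricter gates (0.249), and the upper cells compared are luminal in OVX and suprabasal in WT.

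Hes1 rose in OVX upper cells, at 1527 and 1142 CPM, against 1123 and 744 CPM in OVX basal cells (log2 fold change 0.44 ± 0.12, edgeR adjusted p = 0.0170). This call was lost under 5 of the 8 alternatives, among them without either OVX library and without WT library 2. The log2 fold change ran over 0.24 to 0.45 with a library left out, and over 0.07 to 0.50 under all 8. In WT Hes1 passed as higher in upper cells (0.33 ± 0.11, edgeR adjusted p = 0.0179), but the libraries disagreed. WT library 1 had 439 CPM in upper cells, against 315 CPM in basal cells, and WT library 2 had 499 CPM in upper cells, against 553 CPM in basal cells. Without WT library 1 the fold change was -0.02 on the log2 scale.

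Dll1 had 2 UMIs in WT upper cells, against 46 UMIs in WT basal cells. Per UMI measured, the pooled level was lower in WT upper cells by a ratio of 5.66 (95% counting interval 1.48 to 48.1), and the layer test did not pass (edgeR adjusted p = 0.0627). Intervals of this kind cover counting error only. Hey1 had 3 and 3 UMIs in OVX upper cells, against 40 and 49 in OVX basal cells, and did not pass (edgeR adjusted p = 0.499). Adam10 had 178.9 and 105.0 CPM in OVX upper cells, against 90.0 and 78.7 CPM in OVX basal cells, and 107.3 and 127.6 CPM in WT upper cells, against 109.8 and 145.6 CPM in WT basal cells. In CPM it stood higher in the upper cells of both OVX libraries and lower in those of both WT libraries. The fitted WT layer change had the other sign, at 0.041 on the log2 scale (edgeR adjusted p = 0.914), so no direction is shown there. The difference between the layer effects did not pass (0.53 ± 0.34, edgeR adjusted p = 0.530).

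WT cells were also ordered by the number of suprabasal marker UMIs among 400 UMIs drawn from each cell, in bins of 0, 1, 2 to 3, 4 to 7 and 8 or more. Jag2 had 79.2, 72.0, 70.1, 21.2 and 7.93 CPM along these bins in WT library 1. In WT library 2 it had 79.3, 66.7, 39.1, 33.8 and 5.28 CPM. Both libraries thus began at about the same level and ended near the bottom, from 4 UMIs in WT library 1 and 1 UMI in WT library 2. The 95% counting intervals of neighbouring bins overlapped in WT library 2, so the place of a step is not shown there.

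Notch3 had 6.33, 9.56, 13.9, 25.2 and 29.7 CPM along the bins in WT library 1, and 16.3, 20.01, 37.0, 28.2 and 52.8 CPM in WT library 2. Its level in the last bin was the highest of the 5 in both libraries. Notch1 had its lowest level in the last bin of both libraries, at 77.3 CPM in WT library 1 and 73.9 CPM in WT library 2, against 109.8 and 151.6 CPM in the bin without suprabasal markers. Jag1 ended at 126.9 CPM in WT library 1, against 69.1 CPM in the first bin. In WT library 2 Jag1 ended at 26.4 CPM, from 5 UMIs, against 60.6 CPM in the first bin. The 95% counting intervals there overlapped, at 8.57 to 61.6 and 39.6 to 88.8 CPM. These bins use the same cells as the layer comparison and are given as a description.

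**Figure D4:**
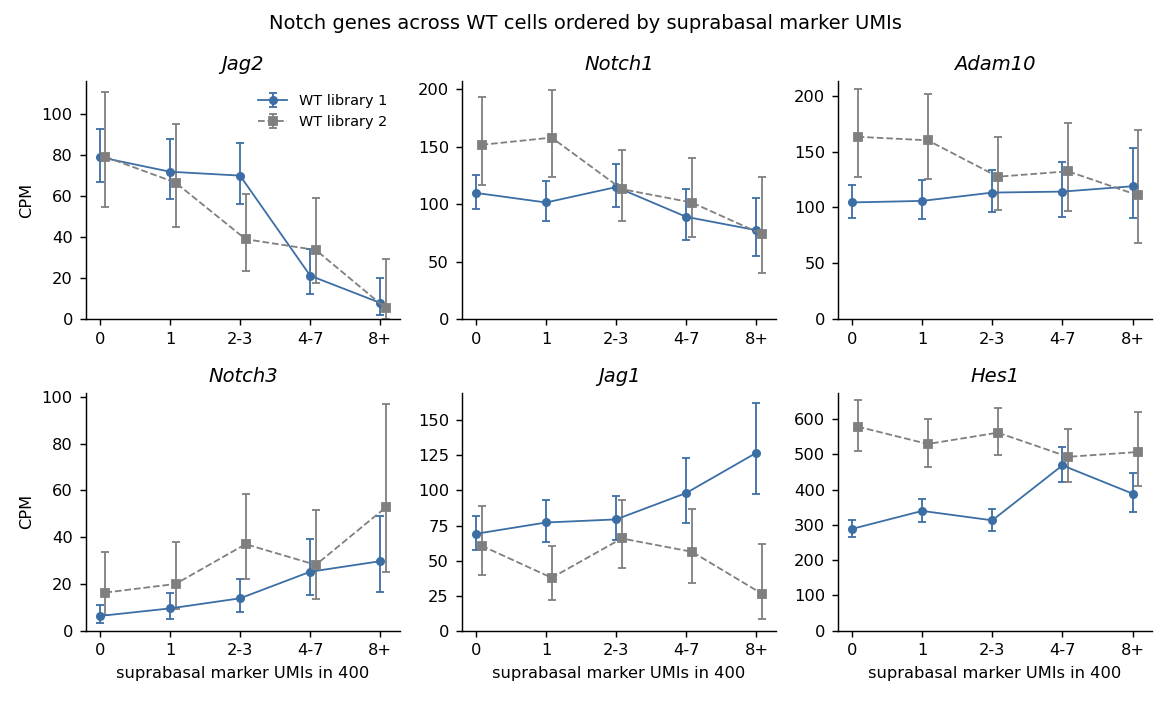
Levels in CPM of 6 Notch genes in WT cells, by the suprabasal marker UMIs among 400 UMIs per cell (x axis, 5 bins), with 95% counting intervals; blue circles are WT library 1 and grey squares WT library 2. In both libraries the bin with most markers has the lowest Jag2, from 4 UMIs in WT library 1 and 1 UMI in WT library 2, and the highest Notch3. Jag1 ends high in WT library 1 and, from 5 UMIs, low in WT library 2.

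Of the wider pathway, 53 other genes were listed (receptors, ligands, fringe enzymes, proteases, nuclear partners, ubiquitin ligases and targets), 49 had a row and 36 could be tested in whole libraries. There 1 rose and 2 fell, near the 5.11% of all tested genes (2.58% higher and 2.52% lower). Cdkn1a, the cell cycle inhibitor p21, had 40.1 and 23.2 CPM in OVX libraries, against 403.6 and 400.5 CPM in WT libraries. It fell by 3.84 ± 0.47 on the log2 scale (edgeR adjusted p = 0.00601). It also fell in the basal gate (-3.66 ± 0.49, edgeR adjusted p = 0.00784) and in the upper gate (-3.84 ± 0.60, edgeR adjusted p = 0.00111). Its calls in the gates were lost without OVX library 2, and that in whole libraries was kept with any one library left out.

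Rfng, a fringe enzyme that adds sugars to Notch receptors, had 3.75 and 7.94 CPM in OVX libraries, against 40.3 and 23.8 CPM in WT libraries, and fell by 2.49 ± 0.56 on the log2 scale (edgeR adjusted p = 0.0476). Aph1c, a gamma-secretase subunit, passed as higher from 16 UMIs in OVX libraries, against 3 in WT libraries, a ratio of 17.0 (95% counting interval 4.86 to 91.0; edgeR adjusted p = 0.0353). Without either OVX library Rfng was not called, and Aph1c was not called without any one of the 4 libraries. Of the 3 listed genes with most UMIs, Snw1, a nuclear cofactor, had 563 and 610 CPM in OVX libraries, against 383 and 421 CPM in WT libraries, and did not pass (edgeR adjusted p = 0.616). Ccnd1, which codes for cyclin D1, had 811 and 781 CPM in OVX libraries, against 271 and 236 CPM in WT libraries, and did not pass in whole libraries (edgeR adjusted p = 0.0760). In upper cells Ccnd1 rose, at 883 and 630 CPM in OVX, against 139 and 121 CPM in WT (log2 fold change 2.39 ± 0.49, edgeR adjusted p = 0.00805), a call lost without either OVX library. Rbpj, the DNA-binding partner of the receptor's intracellular domain, did not pass (log2 fold change 1.51 ± 0.45 in whole libraries, edgeR adjusted p = 0.108).

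Between WT layers, 3 of the 35 tested genes of the wider list rose in upper cells and 6 fell, where 15.1% of all tested genes were called (6.95% higher and 8.19% lower). Nrarp, a feedback inhibitor that Notch itself switches on, had 53.7 and 60.4 CPM in WT upper cells, against 29.8 and 28.4 CPM in WT basal cells. It rose with a log2 fold change of 1.06 ± 0.23 (edgeR adjusted p = 0.000236). Cdkn1a rose by 1.05 ± 0.10 (edgeR adjusted p = 4.31e-16) and Kdm5a, a histone demethylase, by 0.51 ± 0.14 (edgeR adjusted p = 0.00656). Without WT library 1 Nrarp was not called, and without WT library 2 Kdm5a was not.

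Dlk2, a delta-like protein without the domain that activates Notch, had 3 UMIs in WT upper cells, against 236 in WT basal cells, which is lower by a ratio of 19.4 (95% counting interval 6.55 to 94.6; edgeR adjusted p = 2.82e-10). Lfng, another fringe enzyme, had 2 UMIs in WT upper cells, against 65 in WT basal cells, lower by a ratio of 8.0 (95% counting interval 2.13 to 67.5; edgeR adjusted p = 0.0107). Ccnd1 fell by 1.00 ± 0.13 on the log2 scale (edgeR adjusted p = 3.77e-10). Spen and Hdac1, parts of the repressor complex on RBPJ, fell by 0.63 ± 0.19 and 0.43 ± 0.15 (edgeR adjusted p = 0.0128 and 0.0379). Dtx3, a ubiquitin ligase of the deltex family, had 0 UMIs in WT upper cells, against 27 in WT basal cells (edgeR adjusted p = 0.0276). It was 2.22-fold lower when 3 counts over the group stand for the 0, which leaves out the counting error of the 27 UMIs. Of the 6 that fell, Dlk2 and Ccnd1 were called with any one library left out; Lfng and Spen were lost without WT library 1, and Hdac1 and Dtx3 without either WT library. With stricter gates and with gates set on thinned cells, Nrarp, Cdkn1a, Dlk2 and Ccnd1 were called, and Kdm5a, Lfng, Spen, Hdac1 and Dtx3 were not. Between OVX layers none of the 35 passed in edgeR. The unadjusted p of Nrarp there was 0.0318.

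By Pearson correlation over 10 library-by-gate sums of log2(CPM + 1), which share libraries and depth, the genes nearest to Hes1 were Cyp2f2 (r = 0.986), Id1 (r = 0.962) and Id2 (r = 0.957). For Hey1 they were Cxadr (r = 0.98), Ptpn14 (r = 0.948) and Pak3 (r = 0.944), and for Jag2 they were Psip1 (r = 0.915), Bcam (r = 0.914) and Ptn (r = 0.911). The nearest gene was Gas5 for Notch1 (r = 0.95), Nos1 for Jag1 (r = 0.95), Por for Notch2 (r = 0.932) and Nudt18 for Adam10 (r = 0.917). Dll1 had too few UMIs to be ranked. The highest of 11479 correlations is high by selection, and these values are given as a description.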

How the data were processed

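Vaginal epithelium was profiled by Drop-seq in 2 OVX and 2 WT libraries. Each library has 1 deposited table of raw counts (UMIs of a gene in a barcode), which the authors did not normalize. The submitters' processing notes name Seurat 2 and build mm10; aligner, annotation, use of strand and the choice of barcodes were not given in the sources used here. Positions come from GENCODE vM21 (GRCm38).

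Counts were summed over the kept cells of each library and over marker gates. A gate needed at least 2 UMIs of its list and 0.3% of a cell's UMIs (1% for suprabasal markers; 3 UMIs and 1% for non-epithelial types). Sums were tested across all genes with edgeR 4.0.16 (TMM, filterByExpr, quasi-likelihood F-test, Benjamini-Hochberg adjustment, threshold 0.05; R 4.3.3); layers were tested with the library as a block, which leaves out spread that both layers of a library share. The scripts were tested on simulated data. Alternatives were DESeq2 1.42.0, RLE size factors, no filter on low counts, a replicate block, other gates, other sets of cells, and each library left out in turn. The 4 libraries hold 991112 to 5845107 UMIs. Counting intervals (95%) are exact Poisson intervals for CPM. For ratios of pooled counts they are exact binomial intervals given the total of both counts.

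The genes and the lists were chosen with earlier results of these data known. All 9 genes are reported whatever their values; of the wider pathway list, genes past the threshold and the 3 with most UMIs are named, and Rbpj and Heyl were added after their values were seen. None of the last 500 bases of the 9 transcripts shares 50-base words with another gene. Notch1, Notch3 and Dll1 overlap genes on the opposite strand, whose reads could not be told apart without strand. The same holds for Dlk2, Cdkn1a, Ccnd1, Spen, Kdm5a, Dtx3, Nrarp, Aph1c, Snw1 and Rbpj of the wider list. The replicate numbers do not pair the samples. The genes most like Notch3 are not reported here.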

Additional observations from a re-analysis of the deposited data

Results flagged for a closer look

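The change between upper and basal cells differed between OVX and WT, in the test of that difference itself, for 4 genes of the pathway, 1 of the 9 Notch genes and 3 of the 35 others tested, where it called 3.36% of all genes (1.22% higher and 2.13% lower). In edgeR the difference of the layer effects (OVX minus WT, log2) was -1.41 for Jag1 (adjusted p = 0.00398), 4.04 for Dlk2 (adjusted p = 0.00540), -1.24 for Myc (adjusted p = 0.0332) and 0.76 for Ccnd1 (adjusted p = 0.00839). Dlk2 had 59.6 and 19.7 CPM in OVX upper cells, against 39.3 and 30.3 CPM in OVX basal cells, and 2.78 and 0 CPM in WT upper cells, against 33.2 and 53.5 CPM in WT basal cells. Myc, a growth-promoting transcription factor, had 119.3 and 52.5 CPM in OVX upper cells, against 193.1 and 102.5 CPM in OVX basal cells, and 78.7 and 152.2 CPM in WT upper cells, against 70.6 and 129.4 CPM in WT basal cells. Ccnd1 had 883 and 630 CPM in OVX upper cells, against 800 and 814 CPM in OVX basal cells, and 139 and 121 CPM in WT upper cells, against 302 and 271 CPM in WT basal cells. Without single libraries these calls were often lost: without WT library 2 or without OVX library 1 none of Dlk2, Myc and Ccnd1 passed. Ccnd1 was also lost without WT library 1. Myc was lost with each library left out in turn, and also without the filter on low counts. With stricter gates and with gates set on thinned cells, Myc was called and Dlk2 and Ccnd1 were not. The upper gate is luminal in OVX libraries and suprabasal in WT libraries, so layer and kind of cell cannot be told apart.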

How the results depend on the processing

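The Hey1 calls in whole libraries and in basal cells held under each alternative tried for them (11 and 13). Of 10 calls on Notch genes, 8 were lost under some setting and 1 of those, Hes1 between WT layers, also changed sign. Over all alternatives, 432 of 505 values kept their direction and side of the threshold, 17 gained a call, 23 lost one and 33 changed sign. The causes were not tested. Between OVX and WT, Jag1, Notch2, Dll1 and Hes1 gained a call under some alternative in whole libraries and in basal cells. Hes1 also gained calls in upper cells. None of these had passed in the main test. Depth limits Dll1, Hey1, Notch2 and Notch3 most, and the 138 and 173 upper cells of OVX libraries limit every layer comparison there.

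Genes called in whole libraries numbered 587, and 1356 without the filter, 788 with DESeq2, and 308 to 1884 with a library left out. In basal cells they numbered 457, and 1052 without the filter, 292 without dividing cells, and 212 to 1648 with a library left out. In upper cells they numbered 328, and 106 to 658 with a library left out. Between WT layers they numbered 1583, and 941 with stricter gates, and 416 to 1863 with a library left out. Between OVX layers they numbered 509, and 200 to 485 with a library left out, and for the difference between the layer effects 351, and 159 to 305. Samples with the same replicate number did not deviate together (correlations -0.57, -0.55 and -0.39 in whole libraries, basal and upper cells), and the replicate block called 517, 414 and 237 genes. The crossed replicate block, added after seeing the data, called 3489, 2972 and 587.

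Signs of log2 changes that had not been called turned as follows. Without the filter, Jag2 was -0.15 in whole libraries, Notch1 -0.14, Notch3 -0.23 and Adam10 -0.19 in upper cells, and Adam10 -0.021 between WT layers. With stricter gates, Jag2 was 0.069 in basal cells, Hey1 -0.66 between WT layers, Notch3 -0.18 between OVX layers, and for the difference of layer effects Jag2 was -4.24 and Hes1 -0.26. With gates on thinned cells, Hey1 was -0.034 between WT layers and Hes1 -0.051 for the difference of layer effects. Without dividing cells, Notch3 was -0.19 in upper cells, and in the crossed replicate block Jag2 was -0.014 in whole libraries. With a library left out, Notch3 ran over -0.11 to 0.87 and Jag2 over -0.19 to 0.19 in whole libraries, and Jag2 over -0.37 to 0.014 in basal cells. In upper cells Adam10 ran over -0.30 to 0.32, Jag1 over -0.073 to 0.73, Notch3 over -0.21 to 0.18 and Notch1 over -0.22 to 0.26. Between WT layers Hes1 ran over -0.024 to 0.61, Hey1 over -3.13 to 0.48 and Adam10 over -0.068 to 0.097, and Dll1 between OVX layers over -8.07 to 0.15. For the difference of layer effects Hey1 ran over -1.51 to 2.18, Notch2 over -0.64 to 0.77, Hes1 over -0.24 to 0.47 and Dll1 over -5.75 to 2.48.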

Other observations

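Heyl, the third gene of the Hey family of Notch targets, had 10 UMIs in OVX libraries, against 0 in WT libraries. That is 10.6-fold higher when 3 counts over the WT group stand for the 0, and leaves out the counting error of the 10 UMIs. Heyl was picked after its values were seen and was too sparse for the test with the filter on low counts.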
